A study of Mus musculus with 47 samples.

Results

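YAP target genes are genes whose promoters and enhancers are bound by the transcriptional coactivator YAP, and 9 widely used ones were followed here through every peak list of a chromatin immunoprecipitation sequencing (ChIP-seq) study in mouse cells. They were chosen by name: Ankrd1, Ccn1 (formerly Cyr61), Ccn2 (formerly Ctgf), F3, Amotl1, Amotl2, Lats2, Ajuba and Nuak2, 9 of the 21887 protein-coding genes that RefSeq places on the assembled chromosomes of mm10 (GRCm38.p6). A peak was assigned to a gene when it lay inside the gene span or within 10 kb to either side, and 50 kb served as a wider view. Of 806216 peaks in 32 lists, 478 lay in these 10 kb windows, counted once in each list.

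The cells were NMuMG, a mouse mammary epithelial cell line that turns mesenchymal in response to transforming growth factor β1 (TGFβ1). Pbrm1 KO cells and Control cells (whose library names carry the tag sgCt) were given TGFβ1 at 5 ng/ml, for 24 h or 48 h, or no treatment (0 h). PBRM1 is a bromodomain protein of the chromatin remodeller PBAF, which belongs to the SWI/SNF family. PHF10, another PBAF subunit, was profiled in Control cells at 0, 24 and 48 h and in KO cells at 0 and 48 h. ATF3, a stress-induced bZIP factor, was profiled in both genotypes at 0, 24 and 48 h, and FOSL2 and FOSB, FOS members of AP-1, in both genotypes at 0 and 48 h. BRG1, the SWI/SNF ATPase, was profiled in untreated Control cells, and the histone marks H3K4me3, H3K4me1, H3K27ac, H3K14ac and H3K18ac at both 0 and 48 h of the Control genotype. PHF10, BRG1 and ATF3 chromatin was crosslinked with DSG and formaldehyde, and the other chromatin with formaldehyde alone. Only PHF10 in Control cells was replicated, with 2 libraries each at 0 and 48 h, so differences between all other groups, of 1 library each, have no replicate check and no test. The labels do not say how many clones the KO cells represent, or whether the replicates were separate cultures, so a p-value measures only the spread between these libraries. Loss of PBRM1, YAP and TEAD binding and RNA were not analysed here. List length ranged from 2 to 158815 peaks with unknown read depth, and more reads can lengthen a list as more binding can.

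In the Hippo pathway, the kinases LATS1 and LATS2 phosphorylate YAP and its relative TAZ and hold them in the cytoplasm. When the kinases are quiet, YAP and TAZ enter the nucleus and act through the DNA-binding TEAD proteins, often together with AP-1 at distal enhancers. The targets include secreted and cell surface proteins (Ccn1, Ccn2, F3), a nuclear cofactor (Ankrd1), inhibitors that feed back on YAP (Amotl1, Amotl2, Lats2), a LIM protein that restrains LATS kinases (Ajuba) and an AMPK-related kinase (Nuak2).

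The promoters are shown because BRG1 was called within 1 kb of the start at each gene whose start is known. RefSeq promoters of GRCm38.p6, from 250 bases before to 50 after the start, were present for 7 of the 9 genes, which leaves out Ccn2 and Nuak2. Capitals mark the TEAD core GGAATG or CATTCC, its reverse complement, and the AP-1 motif TGANTCA, which reads the same on both strands. The 4 promoters below are Ankrd1 (chr19:36119795-36120094, minus strand), Ccn1 (chr3:145649936-145650235, minus strand), Ajuba (chr14:54577612-54577911, minus strand) and F3 (chr3:121723287-121723586, plus strand), each written 5′ to 3′ along the gene.
Ankrd1: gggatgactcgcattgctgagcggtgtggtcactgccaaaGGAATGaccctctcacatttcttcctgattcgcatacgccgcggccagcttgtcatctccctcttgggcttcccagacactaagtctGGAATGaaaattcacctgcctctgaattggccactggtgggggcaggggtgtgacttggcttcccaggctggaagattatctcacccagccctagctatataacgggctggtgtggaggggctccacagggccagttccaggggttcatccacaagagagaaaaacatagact
Ccn1: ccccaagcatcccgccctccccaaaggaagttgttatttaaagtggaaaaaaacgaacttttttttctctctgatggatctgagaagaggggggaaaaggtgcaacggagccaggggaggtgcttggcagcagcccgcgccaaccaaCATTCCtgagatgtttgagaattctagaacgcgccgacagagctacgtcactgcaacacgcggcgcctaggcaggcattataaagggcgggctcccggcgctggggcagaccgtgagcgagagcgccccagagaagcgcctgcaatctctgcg
Ajuba: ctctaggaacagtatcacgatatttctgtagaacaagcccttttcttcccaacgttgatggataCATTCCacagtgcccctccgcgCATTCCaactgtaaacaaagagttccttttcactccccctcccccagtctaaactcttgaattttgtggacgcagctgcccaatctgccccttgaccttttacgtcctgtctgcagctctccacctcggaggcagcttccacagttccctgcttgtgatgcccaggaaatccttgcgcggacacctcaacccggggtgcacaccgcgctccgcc
F3: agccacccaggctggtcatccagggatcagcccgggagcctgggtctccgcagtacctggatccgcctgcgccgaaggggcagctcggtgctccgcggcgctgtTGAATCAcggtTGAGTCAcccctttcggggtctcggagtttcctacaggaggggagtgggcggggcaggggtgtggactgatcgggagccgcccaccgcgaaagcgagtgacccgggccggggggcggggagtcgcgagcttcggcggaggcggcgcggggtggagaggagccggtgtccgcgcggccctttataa

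The TEAD core was present in the promoters of 5 genes: at 2 places in Ankrd1 (first bases 210 and 123 bases before the start), at 2 in Ajuba (186 and 164 before), and at 1 each in Ccn1 (103 before), Amotl2 (65 before) and Lats2 (4 bases after its upstream start). Of all 21263 promoters of this length at protein-coding genes, 13.6% held it. F3 had 2 AP-1 motifs and no TEAD core, and 6.99% of all promoters held an AP-1 motif. None of the motifs searched was in the Amotl1 promoter, and TGACGTCA, the CRE motif, was in no promoter of these genes and in 2.23% of all. The motifs do not overlap each other, and a match describes the letters alone. The stretches around the TEAD core of Amotl2 (chr9:102717727-102717756, plus strand) and Lats2 (chr14:57746102-57746131, minus strand) read as follows.
Amotl2: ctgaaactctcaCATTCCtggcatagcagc
Lats2: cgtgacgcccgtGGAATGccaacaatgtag

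Untreated NMuMG cells carried active marks at most of these genes. H3K4me3, the mark of active promoters, was called at 8 of 9 genes at 48 h, against 73.2% of all genes, and at the same 8 of 9 at 0 h, against 73.5%. The exception was Ankrd1 at both times, also within 50 kb. H3K27ac, an acetylation of active promoters and enhancers, was called at 9 of 9 genes at 48 h (59.2% of all genes) and 9 of 9 at 0 h (66.6%). Among genes that mark the tissue, 8 of 8 epithelial markers, Cdh1, Epcam, Krt8 and Krt18 among them, had H3K4me3 and H3K27ac at 0 h. Among markers of other cell types, Cd3e and Adipoq had neither mark, Cdh5 and Pdgfra had both, and Ptprc, Pecam1 and Myh11 had H3K4me3 alone.

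BRG1 was found at all 9 genes at 0 h, against 56.7% of all genes, with 34 peaks. It was also at 20 of 20 further YAP target genes and 16 of 16 Hippo components. Epithelial markers had BRG1 at 6 of 8 genes, and markers of other cell types at 6 of 8. At the 7 genes with a known start, 7 had BRG1 within 1 kb of it, against 32.7% of 17492 genes with a known start. By fold enrichment, the start peaks of Ankrd1 (rank 29110 of 29215) and F3 (27229) were near the lower end of the list. Those of Amotl2 (5913) and Lats2 (8037) were not. Amotl2 had the most BRG1 peaks (6), followed by Amotl1 and Nuak2 with 5 each, and Lats2 had 1. Gene spans range from 3015 bases at Ccn1 to 121009 at Amotl1, and these numbers are not corrected for window length. Of the 34 BRG1 peaks, 8 were centred within 1 kb of a start, 10 overlapped H3K4me3 at 0 h (29.4%, against 24.4% of all BRG1 peaks), and 9 overlapped PHF10 of either 0 h replicate, against 20.2% of all BRG1 peaks. The 3 BRG1 peaks at Ankrd1 and the 5 at Nuak2 overlapped no PHF10 peak at 0 h. In the plot of peak numbers by gene and list, BRG1 fills its column while PHF10 at 0 h leaves gaps.

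**Figure D1:**
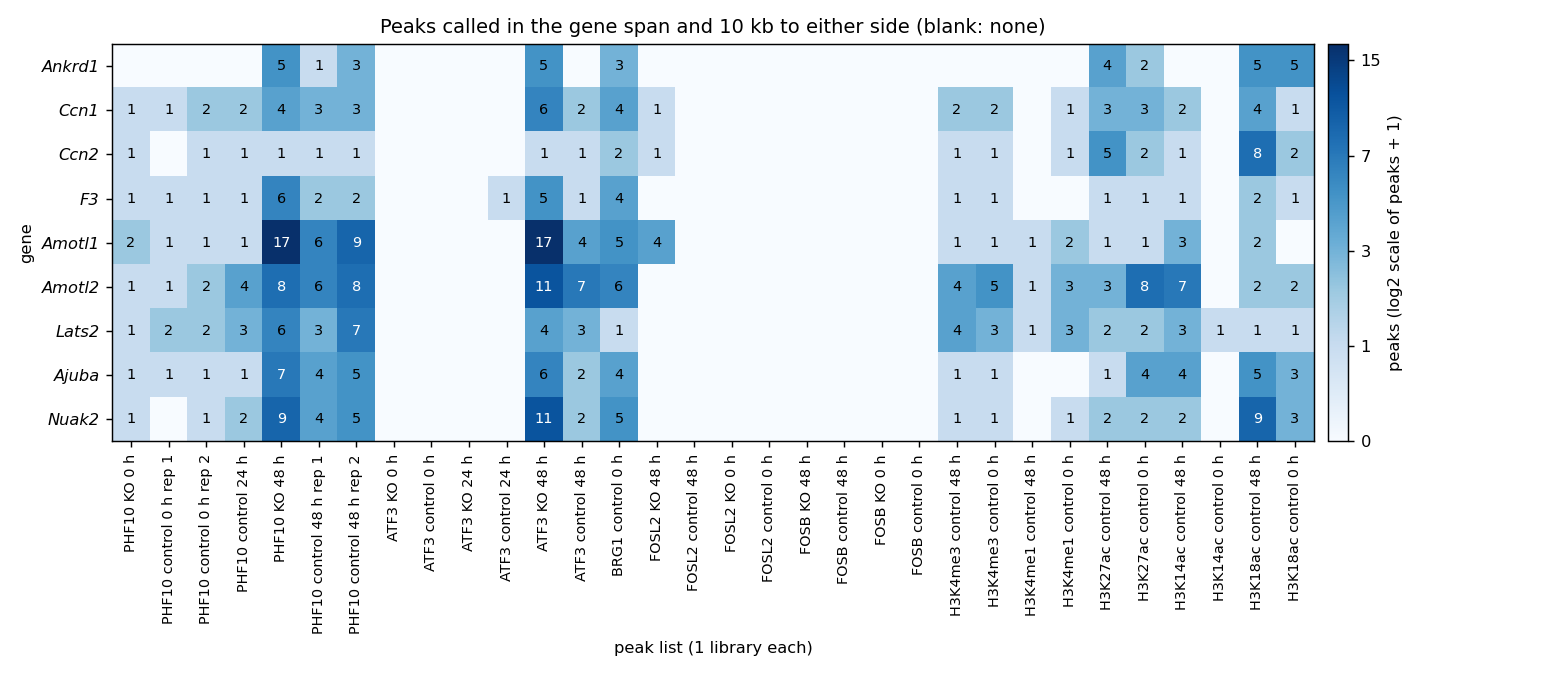
Number of peaks in each gene span and 10 kb to either side (cell value and colour, log2 scale of peaks + 1) for the 9 genes (rows) in the 32 lists (columns, 1 library each). Ankrd1 is blank in the H3K4me3 and H3K14ac lists, and the FOSL2 column for KO at 48 h holds peaks at Ccn1, Ccn2 and Amotl1 alone.

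PHF10 in Control cells was found at promoters of these genes before treatment and at additional internal sites after it. The replicates held PHF10 at 6 of 9 genes (48.2% of all genes) and 8 of 9 (59.1%) at 0 h, the 24 h library at 8 of 9 (71.3%), and the replicates at 48 h at 9 of 9 (75.0%) and 9 of 9 (83.8%). Ankrd1 lacked PHF10 at 0 and 24 h, and Ccn2 and Nuak2 lacked it in replicate 1 at 0 h alone. The mean number of genes with PHF10 was 9.0 ± 0.0 at 48 h and 7.0 ± 1.41 at 0 h (SD, n = 2 each), and the exact two-sided permutation test gave p = 0.33, the smallest p that 2 against 2 libraries allow. The difference was -2.0 genes with peaks of at least 5-fold enrichment and also at equal list length, the opposite direction. Median fold enrichment of the lists was 2.99 and 2.92 at 48 h and 8.7 and 3.93 at 0 h, so a 5-fold cut does not treat them alike.

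One gene, Ankrd1, had PHF10 in both 48 h replicates and in neither 0 h replicate, a pattern found at 14.5% of all genes. None of the 9 had the reverse (0.0228% of all genes), and none had PHF10 at 24 h with neither 0 h replicate (10.8%). In KO cells Ankrd1 was again the 1 gene of the 9 with PHF10 at 48 h and not at 0 h, against 35.6% of all genes. At 0 h, 8 of the 9 genes already had PHF10 in Control replicate 2, and the same 8 had it in KO cells. Ankrd1 was thus the only gene that could show either pattern. The counts of 1 therefore cannot be weighed against these shares of all genes. Without 0 h replicate 2 the Control count was 3, with Ccn2 and Nuak2 added.

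PHF10 peaks in the 9 windows numbered 30 and 43 at 48 h and 7 and 11 at 0 h, with 15 at 24 h. The 48 h mean of 36.5 ± 9.19 and the 0 h mean of 9.0 ± 2.83 (SD, n = 2 each) differed by 27.5 peaks (exact two-sided permutation test, p = 0.33), and the groups did not overlap. The lists themselves held 43549 and 102434 peaks at 48 h and 11285 and 14731 at 0 h. Per 10000 peaks of a list, the windows held 6.89 and 4.2 PHF10 peaks at 48 h and 6.2 and 7.47 at 0 h. On this scale the groups overlapped (difference -1.29, exact permutation p = 0.67), and the lists' own lengths moved with the peak numbers at these genes.

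PHF10 sites called at 48 h alone differed from the earlier ones in the marks they overlapped. Of 24 sites in these windows called in both 48 h replicates, 13 were called in neither 0 h replicate (64.7% of all such sites) and 11 in at least 1 of them. Of the 13 later sites, 1 overlapped H3K4me3 at 48 h (30.0% of later sites genome-wide), 1 overlapped H3K27ac (4.38%) and 4 overlapped BRG1 at 0 h (11.1%). All 11 of the earlier sites overlapped H3K4me3 at 48 h, against 98.7% of earlier sites genome-wide, and 8 of them overlapped BRG1 at 0 h (49.0% genome-wide). The 24 h library already held 2 of the 13 later sites (28.7% genome-wide), one of the Nuak2 sites and an Amotl2 site. The later sites lay at Amotl1 (3), Amotl2 (3), Nuak2 (3), Ajuba, Lats2, Ccn1 and Ankrd1 (1 each), and Ccn2 and F3 had none, without correction for window length.

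At 48 h, 7 of 30 PHF10 peaks in replicate 1 and 6 of 43 in replicate 2 were centred within 1 kb of a start, against 4 of 7 and 7 of 11 at 0 h. The Lats2 promoter carried the highest PHF10 fold enrichment of the 9 genes at 0 h, 15.3 in replicate 1 and 5.97 in replicate 2 (chr14:57745339-57746381). Fold enrichment is a value the authors gave each peak, and positions are as deposited. Its median differed between lists, so values of different lists printed side by side do not measure a change. The promoter peak ranked 653 of 43549 in replicate 1 and 62049 of 102434 in replicate 2 at 48 h, and 1404 of 11285 in replicate 1 and 243 of 14731 in replicate 2 at 0 h.

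Lats2 also had an internal PHF10 site 46119 bases from its start (chr14:57699573-57700435), with H3K4me3, H3K27ac and H3K4me1 at 0 h. LATS2 is the kinase that inhibits YAP. Ccn1, which encodes a secreted integrin ligand, had PHF10 in all 7 libraries at a site 3460 bases upstream of its start in 0 h replicate 1 (chr3:145653270-145653722 over both replicates). This site carried H3K4me3 with a fold enrichment of 14.3 at 48 h (rank 9912 of 29720) and 34.6 at 0 h (rank 7202 of 31657). The gene's own start had 30.2 at 48 h (rank 6851) and 29.0 at 0 h (rank 7878). A long noncoding RNA gene, Gm17501, spans this upstream position.

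At Ajuba, PHF10 covered the promoter at 0 h in both replicates (chr14:54575674-54577579), and a further site lay inside the gene at 48 h (chr14:54570132-54571867). At Amotl1, an angiomotin family member that binds YAP, the promoter peak of 0 h was joined at 48 h by sites 21694 and 6518 bases beyond the start and 19112 bases upstream of it (distances in replicate 2). The RefSeq start of Amotl1 lies inside its gene span, so all of these sites are within the span. At Nuak2 the later sites lay 3352, 14998 and 18004 bases from the promoter end in replicate 2. For Nuak2 and Ccn2 the gene end nearest their strongest H3K4me3 peak stood for the start.

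Ankrd1 encodes an ankyrin repeat protein that acts as a nuclear cofactor and is a common readout of YAP activity. Over the 24 lists of at least 100 peaks, Ankrd1 shared its presence or absence call with each other gene in 12 to 16 lists, whereas pairs among the other 8 genes matched in 19 to 23. In the 24 lists, 4 genes had the same calls as Ankrd1 throughout, 29 the same as Ccn1 and 9 the same as Ccn2.

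In Control cells at 48 h, both PHF10 replicates had a peak 7647 and 7639 bases into Ankrd1 near the far end of the gene (chr19:36112055-36112342), with fold enrichments of 5.83 (rank 362 of 43549) and 4.03 (rank 7026 of 102434). This site overlapped no PHF10 peak at 0 or 24 h and none of H3K4me3, H3K27ac, H3K14ac, BRG1 at 0 h or ATF3. It was also the 1 of the 24 Control 48 h sites without a PHF10 peak in KO cells. KO cells instead had 5 other PHF10 peaks at Ankrd1 at 48 h, the highest with a fold enrichment of 4.06 (chr19:36124645-36125238, 5098 bases upstream of the start), and 4 of the 5 overlapped ATF3 peaks of KO cells. Replicate 2 of Control cells had peaks at 2 of these places.

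H3K27ac was called 4 times at Ankrd1 at 48 h and 2 times at 0 h, and the peak 1840 bases inside the gene (1830 at 0 h) had a fold enrichment of 11.1 at 48 h (rank 8356 of 15962) and 4.9 at 0 h (rank 14911 of 20507). H3K18ac, another acetylation of active chromatin, was called 5 times at each time. Its highest peak at 0 h lay 10529 bases upstream of the start with a fold enrichment of 15.8 (rank 137 of 13226), over a BRG1 peak. BRG1 also covered the Ankrd1 start at 0 h (chr19:36119157-36120534), with a fold enrichment of 2.13 that ranked 29110 of 29215, close to the lower end of that list. The protein-coding gene Rpp30 reaches into the 10 kb window on the far side of Ankrd1.

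**Figure D2:**
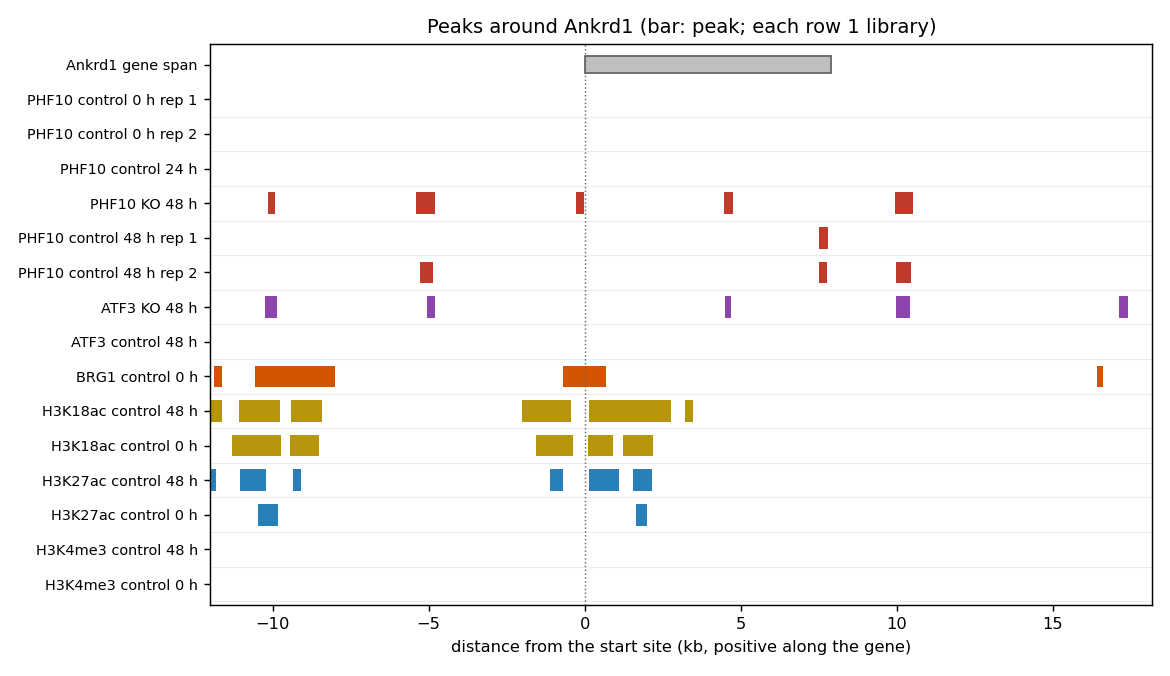
Peaks around Ankrd1 by distance from its start in kb (positive along the gene), 1 row per library, each bar 1 peak. The PHF10 peak centred 7647 and 7639 bases from the start stands in both Control 48 h rows and not in the KO row, the ATF3 peaks stand in the KO row alone, and H3K4me3 has none.

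The comparison of KO with Control cells asked whether PHF10 and the bZIP factors differ at these genes without PBRM1. PHF10 at 0 h was called at 8 of 9 genes in KO cells (52.4% of all genes) and at 6 and 8 in the Control replicates (48.2% and 59.1%). None of the 9 had PHF10 in KO cells and neither Control replicate (1.06% of all genes), and none had the reverse (1.3%). KO cells and Control replicate 2 held PHF10 at the same 8 genes, so only Ankrd1 could show either pattern. Of 7 sites called in both Control replicates, 6 were called in KO cells (85.7%, exact Clopper-Pearson 95% interval 42.1 to 99.6, counting error only), against 95.3% of all sites. The missing one was the internal Lats2 site.

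At 48 h, PHF10 was called at 9 of 9 genes in KO cells (87.9% of all genes) and in both Control replicates (75.0% and 83.8%). None of the 9 had it in KO cells alone (4.25% of all genes) or in both Control replicates alone (0.0959%). With PHF10 at 9 of 9 genes in each of these libraries, neither pattern could occur. The counts therefore cannot be weighed against these shares. Of the 24 Control sites, 23 were called in KO cells (95.8%, interval 78.9 to 99.9), against 96.9% of all sites. The windows held 63 PHF10 peaks in KO cells, against 30 and 43 in the Control replicates, from lists of 158815 and of 43549 and 102434 peaks, and thus 3.97 per 10000 peaks in KO cells, against 6.89 and 4.2 in Control cells.

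ATF3 was called at none of the 9 genes at 0 h in either genotype. The 0 h lists held only 25 peaks in KO cells (0.064% of all genes) and 20 in Control cells (0.0594%). At 24 h ATF3 was called at none in KO cells, where the list held 69 peaks (0.114% of all genes). In Control cells it was called at F3 alone at 24 h (peak in Control and not in KO, 7.0% of all genes). F3 encodes tissue factor, the cell surface starter of blood coagulation. This peak lay 3652 bases inside the gene (chr3:121726987-121727392), with a fold enrichment of 3.2 that ranked 1691 of 2004. At 48 h the place had an ATF3 peak of 5.14 in KO cells (chr3:121726961-121727442, rank 9488 of 144513) and none in Control cells. The F3 promoter had ATF3 in both genotypes at 48 h.

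At 48 h, ATF3 was called at 9 of 9 genes in KO cells (84.6% of all genes) and at 8 of 9 in Control cells (76.4%). The same 8 genes had ATF3 in Control cells at 48 h and not at 0 h, as did 76.4% of all genes. Ankrd1 was the 1 gene with ATF3 in KO cells and not in Control cells (9.91% of all genes), and no gene of the 9 had the reverse (1.7%). Only Ankrd1 lacked ATF3 in Control cells, and none lacked it in KO cells. These counts therefore cannot be weighed against the shares of all genes. Counting only peaks enriched 5-fold or more, the KO minus Control difference in genes with ATF3 was -3.0. Median fold enrichment was 3.52 in the KO list and 6.75 in the Control list, so this cut does not treat them alike. The highest ATF3 peak at Ankrd1 in KO cells lay 4914 bases upstream of the start (chr19:36124630-36124885), with a fold enrichment of 6.28 that ranked 1845 of 144513.

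The ATF3 peaks in the 9 windows numbered 66 in KO cells and 22 in Control cells. The lists held 144513 peaks in KO cells and 45716 in Control cells, so the windows held 4.57 per 10000 peaks in KO cells and 4.81 in Control cells. Of the 66 KO peaks, 20 overlapped Control ATF3 peaks (30.3%, against 22.1% of all KO peaks), and of the 22 Control peaks, 18 overlapped KO peaks (81.8%, against 66.7%). Of the 66, 56 overlapped KO PHF10 peaks (84.8%, against 80.4% of all). Amotl1 had 17 ATF3 peaks in KO cells, the most there, and 4 in Control cells, where Amotl2 had the most with 7, and Ccn2 had 1 in each. The gene spans differ, with 121009 bases at Amotl1, 16328 at Amotl2 and 3242 at Ccn2. The peak numbers are not corrected for this length.

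ATF3 in Control cells at 48 h lay where H3K14ac was called. Of the 22 ATF3 peaks, 20 overlapped H3K14ac at 48 h (90.9%, interval 70.8 to 98.9), against 67.6% of all ATF3 peaks. H3K4me3 at 48 h covered 14 of the 22 (63.6%, against 62.2%) and H3K27ac 12 (54.5%, against 26.7%). Amotl2, the other angiomotin family gene, had 7 ATF3 peaks spread from its promoter to 12297 bases beyond the start, and 6 of them overlapped H3K14ac. Its highest was an internal peak 2728 bases from the start, with a fold enrichment of 9.54 (chr9:102720170-102720893).

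**Figure D3:**
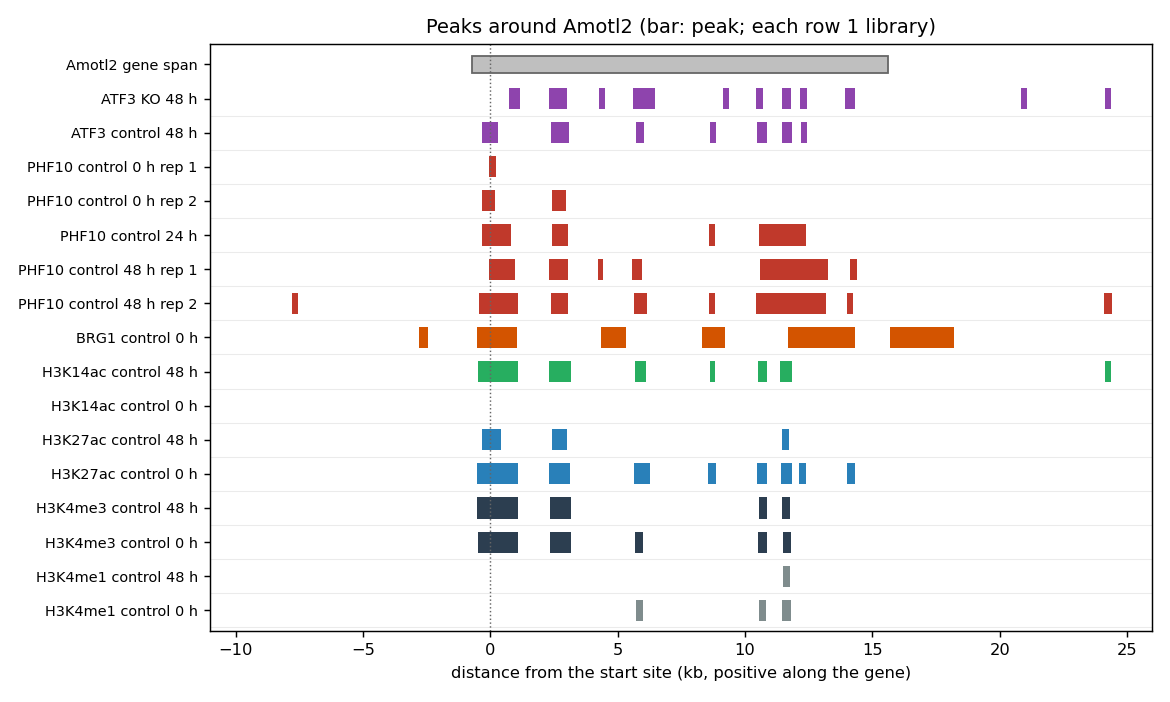
Peaks around Amotl2 by distance from its start in kb (positive along the gene), 1 row per library, each bar 1 peak. Of the 7 H3K14ac peaks at 48 h, 6 stand over H3K27ac peaks of 0 h, and the H3K14ac row at 0 h is empty.

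FOSL2 was called at more of these genes in KO cells than in Control cells. At 48 h it was called at 3 of 9 genes in KO cells (17.2% of all genes) and at 0 of 9 in Control cells (9.22%), and at 0 h at none in either. The 0 h lists held only 5 peaks in KO cells (0.00457% of all genes) and 7 in Control cells (0.00914%). Ccn1, Ccn2 and Amotl1 had FOSL2 in KO cells and not in Control cells, a pattern at 8.64% of all genes, and none of the 9 had the reverse (0.603%). Each list came from 1 library, the KO list was longer (7381 peaks against 3444), and no test was possible. With the gene span alone, the difference was 1.0 gene.

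The 6 FOSL2 peaks of KO cells lay away from promoters. None overlapped H3K4me3 (2.4% of all KO FOSL2 peaks did), H3K27ac (3.94%) or a Control FOSL2 peak (41.6%). At Ccn2, which encodes the matricellular growth factor CTGF, the peak lay 5982 bases upstream (chr10:24589286-24589635) with a fold enrichment of 8.42, ranking 2549 of 7381. At Ccn1 it lay 8722 bases beyond the start, outside the gene on its far side (chr3:145641097-145641429), with a fold enrichment of 5.61, ranking 5899. Amotl1 had 4 peaks within its span. The highest had a fold enrichment of 9.54 (chr9:14604427-14604692, 10440 bases beyond the start), and 1 lay 17922 bases upstream of the start (chr9:14632737-14633106, 6.73).

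BRG1 had been called in untreated Control cells at 4 of these 6 places (66.7%, interval 22.3 to 95.7), against 41.8% of all KO FOSL2 peaks. They were the Ccn1 and Ccn2 sites and 2 of the Amotl1 sites. Amotl1 alone held 4 of the 6 peaks, which the interval counts as independent. H3K18ac at 48 h covered 2 of the 6 (13.3% of all), the Ccn2 site and the upstream Amotl1 site, and ATF3 of KO cells covered none (8.37% of all). PHF10 of KO cells covered 1 (17.1% of all), inside Amotl1.

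Within 50 kb, FOSL2 was called at 5 genes in KO cells (35.2% of all genes) and at 3 in Control cells (20.2%). The 3 Control peaks, 41100 bases upstream of Ccn2 (fold enrichment 7.85), 19616 bases upstream of F3 (3.87) and 30224 bases beyond the start of Nuak2 (7.03), were each called in KO cells too. FOSB was called at none of the 9 genes in any list, also within 50 kb. FOSB was rare altogether, with a peak in KO cells alone at 0.0548% of all genes and in Control cells alone at 0.676%.

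**Figure D4:**
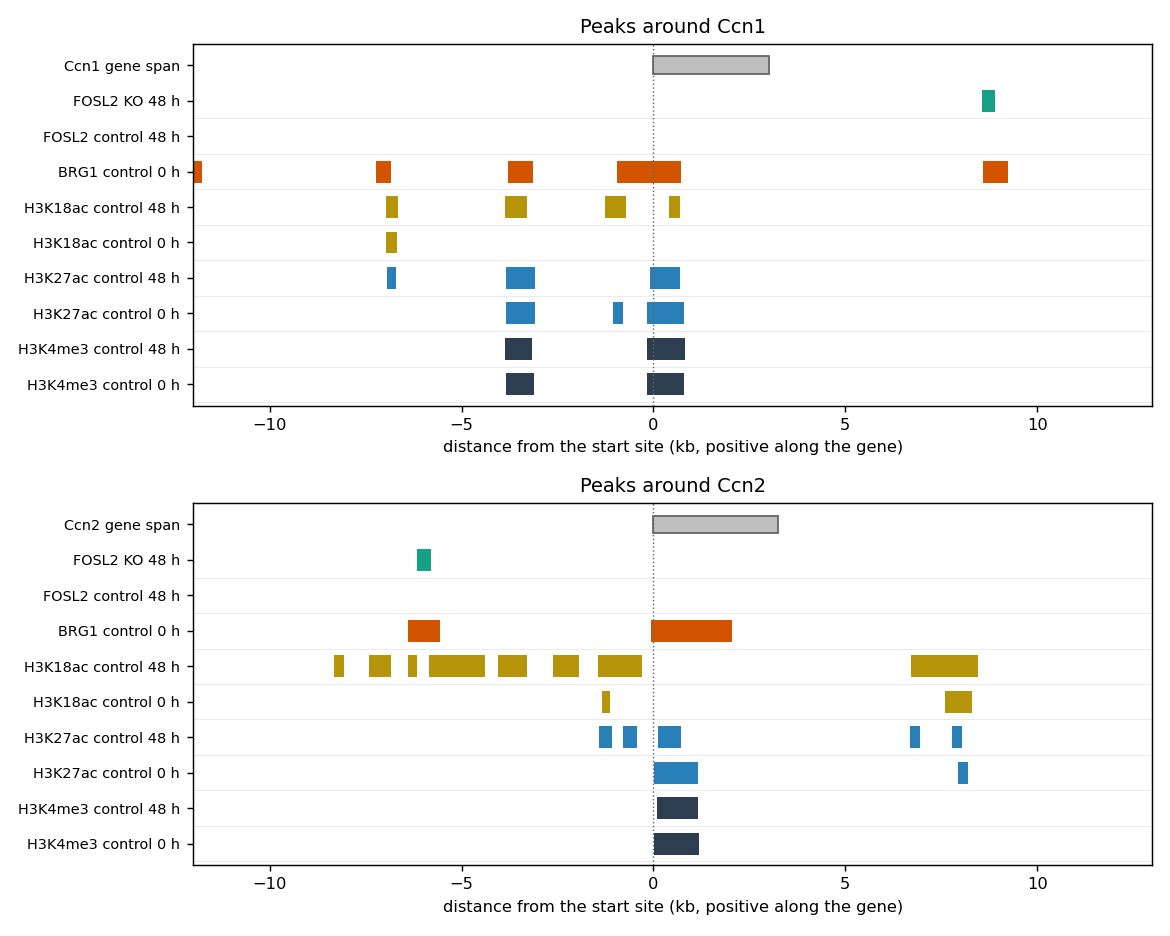
Peaks around Ccn1 (top) and Ccn2 (bottom) by distance from the start in kb (positive along the gene), 1 row per library, each bar 1 peak. The FOSL2 peak of KO cells stands over a BRG1 peak of untreated Control cells at both genes, and H3K18ac has 8 peaks at Ccn2 at 48 h and 2 at 0 h.

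For the histone marks, 48 h of TGFβ1 was set against 0 h in Control cells. H3K4me3 was called at the same 8 genes, so none of the 9 had it at 48 h alone (1.01% of all genes) or at 0 h alone (1.32%). Of 15 H3K4me3 peaks at 48 h, 14 overlapped one of the 15 at 0 h (93.3%, against 90.8% of all). H3K27ac was likewise at all 9 genes at both times, so none had it at 48 h alone (1.04%) or at 0 h alone (8.48%).

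Within the windows, H3K27ac peaks shifted in number between genes, while the sum was 22 at 48 h and 25 at 0 h. Amotl2 had 3 at 48 h and 8 at 0 h, Ajuba 1 at 48 h and 4 at 0 h, and those called at 0 h alone lay inside the genes. Ccn2 had 5 at 48 h and 2 at 0 h, and Ankrd1 had 4 at 48 h and 2 at 0 h. The Lats2 promoter peak ranked 209 of 15962 at 48 h and 187 of 20507 at 0 h (fold enrichment 211 at 48 h and 213 at 0 h). Ccn2's promoter peak ranked 6680 of 15962 at 48 h and 4882 of 20507 at 0 h.

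H3K14ac was called at 8 of 9 genes at 48 h (74.4% of all genes) and at Lats2 alone at 0 h (18%). The other 7 of these thus had it at 48 h and not at 0 h, a pattern at 56.4% of all genes, and none had the reverse (0.0959%). Ankrd1 had none at either time. The list held 35270 peaks at 48 h and 3453 at 0 h, and at equal list length the gain in genes was 2. At 0 h the Lats2 promoter peak ranked 98 of 3453 (fold enrichment 31.5, chr14:57745415-57746185), and at 48 h it ranked 326 of 35270 (59.1). Of the 23 H3K14ac peaks at 48 h, 18 overlapped H3K27ac of 0 h (78.3%, against 51.0% of all), among them 6 of 7 at Amotl2 and 4 of 4 at Ajuba.

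H3K18ac was called at 9 of 9 genes at 48 h (45.1% of all genes) and at 8 of 9 at 0 h (24.3%). Amotl1 had it at 48 h and not at 0 h (24.6% of all genes), with a promoter peak of 15.6 (chr9:14614309-14615089), and none of the 9 had the reverse (3.87%). Amotl1 was the only gene without H3K18ac at 0 h, and none lacked it at 48 h. The counts therefore cannot be weighed against these shares of all genes. The windows held 38 peaks at 48 h and 18 at 0 h, which is 18.6 per 10000 peaks of the list at 48 h and 13.6 at 0 h. The Lats2 promoter had a fold enrichment of 151 at 48 h (rank 109 of 20415), the highest of the 9 genes at that time, and 6.18 at 0 h (rank 3819 of 13226), where Ankrd1 had the highest (15.8). Ccn2 had 8 peaks at 48 h and 2 at 0 h, of which 7 at 48 h lay upstream and none over the start. Nuak2 had 9 at 48 h and 3 at 0 h, 8 of the 9 beyond the far end of the gene, where the long noncoding RNA gene F730311O21Rik also lies.

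H3K4me1, the mark of enhancers and promoter flanks, was called at 3 of 9 genes at 48 h (43.3% of all genes) and at 6 of 9 at 0 h (50.0%). Ccn1, Ccn2 and Nuak2 had it at 0 h and not at 48 h (12.1% of all genes), and none had the reverse (5.51%). Their 0 h peaks were weak, with fold enrichments of 2.9, 2.46 and 2.07 at ranks 16890, 19568 and 20160 of 20179. The call was not kept at peaks of at least 5-fold enrichment, where the difference was 3 genes in the other direction, or at equal list length, where it was 1 gene in the other direction. Median fold enrichment was 8.46 in the 48 h list and 3.44 in the 0 h list, so the 5-fold cut does not treat them alike. Amotl1, Amotl2 and Lats2 had H3K4me1 at both times, and the internal Lats2 peak had a fold enrichment of 14.6 at 48 h (rank 3020 of 12863) and 3.14 at 0 h (rank 14132 of 20179).

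**Figure D5:**
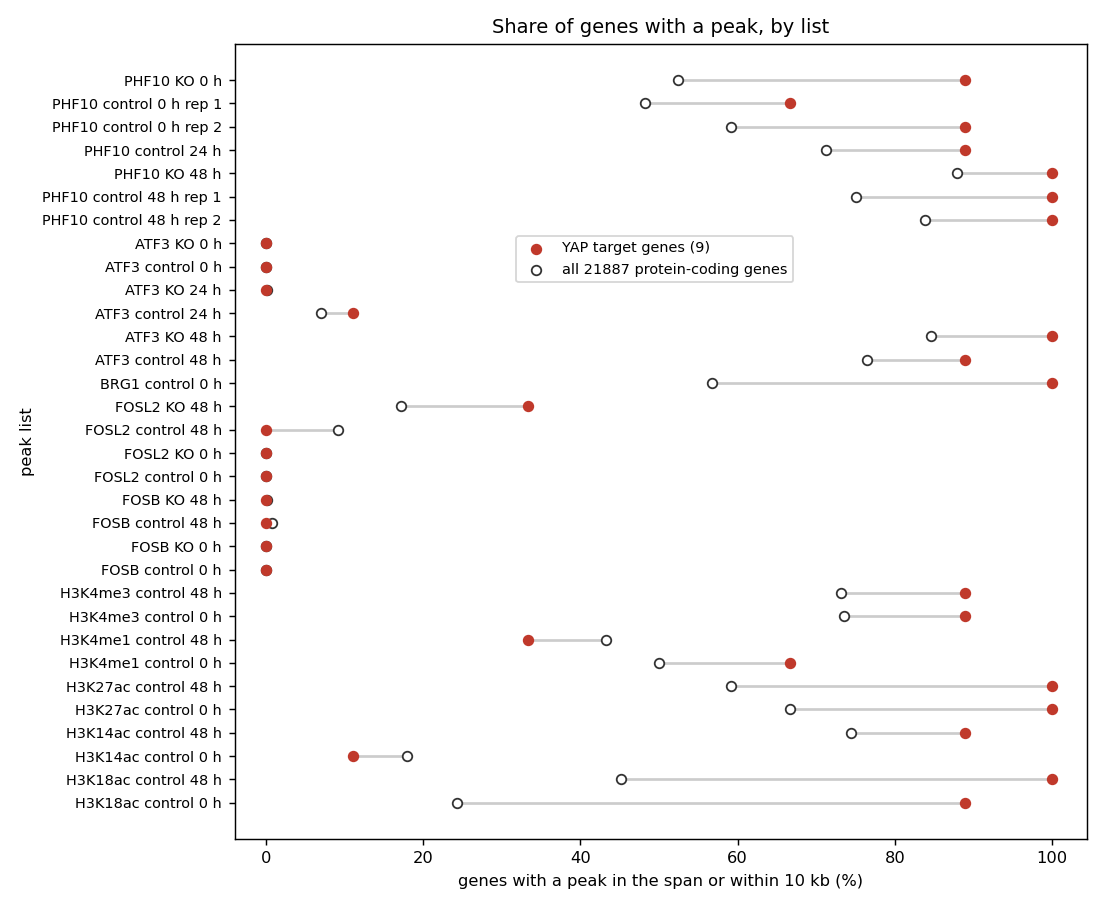
Share of genes with a peak in the span or within 10 kb (%) in each list (rows), for the 9 YAP target genes (filled) and all 21887 protein-coding genes (open). BRG1 at 0 h (100.0% against 56.7%) and H3K18ac at 0 h (88.9% against 24.3%) stand far apart, and the share of the 9 genes is the lower one for FOSL2 in Control cells at 48 h (0.0% against 9.22%), H3K4me1 at 48 h (33.3% against 43.3%) and H3K14ac at 0 h (11.1% against 18%). It is also the lower one, at 0.0%, for all FOSB lists, the 0 h lists of ATF3 and FOSL2 and ATF3 in KO cells at 24 h.

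Other genes of the pathway were read from 2 lists, 20 further YAP target genes and 16 Hippo components. FOSL2 in KO cells and not in Control cells was found at 5 of 20 targets and 3 of 16 components (8.64% of all genes), and the reverse at none of either. The targets were Birc5, an inhibitor of apoptosis (fold enrichment 10.4), Axl, a receptor tyrosine kinase (7.58), Rbms3 (5.05), Crim1 (4.98) and Dock5 (3.9). The components were Mob1b, a coactivator of LATS kinases (10.1), and the TEAD cofactors Vgll3 (7.01) and Vgll4 (4.76).

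ATF3 at 48 h was in KO cells and not in Control cells at 1 of 20 targets, Ccdc80 (4.35), and at 0 of 16 components (9.91% of all genes). Control cells had ATF3 at 19 of 20 targets and 16 of 16 components at 48 h, so only Ccdc80 could show this pattern. At 24 h ATF3 was in Control cells and not in KO cells at the target Myof (5.4) and at the components Stk3 (6.58) and Stk4 (4.34), the MST kinases that activate LATS (7.0% of all genes). PHF10 in both 48 h replicates and neither 0 h replicate was at 2 of 20 targets, Fgf1 (3.26) and Ccdc80 (2.64), and at 1 of 16 components, Amot (3.71), the founding angiomotin, against 14.5% of all genes. In 0 h replicate 2 PHF10 was already at 16 of 20 targets and 15 of 16 components (59.1% of all genes). Those genes could not show the pattern, so these counts cannot be weighed against the 14.5%. No gene of either list had PHF10 in 1 genotype alone at 0 or 48 h. At 48 h PHF10 was at 20 of 20 targets and 16 of 16 components in every library, so none could differ then.

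H3K14ac was at 48 h and not at 0 h at 9 of 20 targets and 10 of 16 components, against 56.4% of all genes. Nf2, the tumour suppressor Merlin, led them (64.0). At 0 h H3K14ac was already at 10 of 20 targets and 6 of 16 components (18% of all genes). Those genes could not show the pattern, so these counts cannot be weighed against the 56.4%. At 48 h H3K14ac was at 19 of 20 targets and 16 of 16 components (74.4% of all genes). H3K18ac was at 48 h alone at 6 of 20 targets and 8 of 16 components (24.6% of all genes), led by Yap1 itself (80.5) and the target Fjx1 (55.6), and was at 0 h alone at Tgfbi (4.48), against 3.87% of all genes. At 0 h H3K18ac was already at 13 of 20 targets and 7 of 16 components (24.3% of all genes), which could not gain it. H3K27ac was at 0 h alone at Fgf1 (3.57) and Amot (2.87), against 8.48% of all genes. H3K4me1 was at 48 h alone at 2 of 20 targets and 3 of 16 components, Yap1 (3.43) and Lats1 (4.05) among them (5.51% of all genes), and at 0 h alone at 2 and 2 (12.1%). No gene of either list differed in H3K4me3 between 48 and 0 h.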

How the data were processed

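ChIP-seq of 5 factors and 5 histone marks in NMuMG cells gave 32 peak lists, 1 per library (47 samples, of which 15 are inputs with no list used here). Tools listed per the submitters' processing notes are MACS3 3.0.0a7, deepTools 3.5.1, Bowtie2 2.3.3, Partek 11.0.24.0325 and fastp 0.19.5, with the build mm10. Their settings and roles are not given in the sources used here. As deposited by the authors, a peak has a pileup height (signal), a −log10 p and a −log10 q value and a fold enrichment. Pileup was not used. PHF10 and BRG1 lists reach down to a q-value of about 0.1 and the other lists to about 0.05. Read depth is unknown, so it gives no precision for a single call. Deposited start and end are printed without shifting, since end minus start equals the stated length and the counting base is open.

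Autosomal, X and Y peaks were joined to RefSeq gene spans of GRCm38.p6, which carry no strand, exon or intron. An overlap was 1 bp or more. Sequences and starts came from the RefSeq promoter table. Intervals are exact Clopper-Pearson at 95% and count peaks as independent, though several can lie at 1 gene and come from the same library. The only test was an exact two-sided permutation test for PHF10, 48 against 0 h. The join was tested on simulated peaks. One marker gene of another cell type is not reported here. The genes, further lists and rules were chosen with earlier results of these data known. Named were the 9 genes and, per comparison, up to 5 other pathway genes of a list with a peak in 1 arm only, ranked by fold. Alternatives were 50 kb, the gene span alone, −log10 q of at least 5, fold of at least 5, lists of equal length, 50% of the peak in the window, each PHF10 replicate left out and the replicate number as a block. Python 3.11.15, pandas 2.3.3, NumPy 2.4.6, SciPy 1.17.1 and matplotlib 3.10.9 were used.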

Additional observations from a re-analysis of the deposited data

Results flagged for a closer look

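The KO minus Control difference in the number of genes with ATF3 had opposite signs at the 2 times: -1.0 at 24 h, from F3, and 1.0 at 48 h, from Ankrd1. Each value rests on 1 library per genotype and on 1 gene, and the difference between the times was not tested. The ATF3 lists differed in length the same way, with 69 peaks in KO cells and 2004 in Control cells at 24 h, and 144513 in KO cells and 45716 in Control cells at 48 h. At equal list length the difference was 0.0 at 24 h and 1.0 at 48 h.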

How the results depend on the processing

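Of the values recomputed under the alternatives, 74 kept their direction and, for PHF10 at 48 against 0 h, the side of the test's threshold, though not always the same number of genes, 13 moved and 5 reversed. Values are counts of the 9 genes. For PHF10 in KO minus Control cells, a Control gene needed a peak in both replicates, and a KO gene in its only library. This is stricter for Control cells, and the difference as reported was 2.0 at 0 h and 0.0 at 48 h. With peaks of at least 5-fold enrichment, PHF10 at 48 minus 0 h in Control cells became -2.0, the number of genes with PHF10 at 48 h alone 0.0, ATF3 in KO minus Control cells 0.0 at 24 h and -3.0 at 48 h, and H3K4me1 at 48 minus 0 h 3.0. At equal list length, PHF10 at 48 minus 0 h was -2.0, ATF3 in KO minus Control cells at 24 h 0.0, H3K4me1 1.0 and H3K14ac 2.0. With −log10 q of at least 5, PHF10 in KO minus Control cells at 48 h was 1.0, ATF3 at 24 h 0.0, H3K4me1 -1.0 and H3K18ac 3.0. With the gene span alone, FOSL2 in KO minus Control cells was 1.0 and H3K18ac 3.0, and with 50 kb PHF10 in KO minus Control cells at 0 h was 0.0. Median fold enrichment differed between the lists compared, so the 5-fold cut does not treat them alike. The causes were not tested.

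With each PHF10 replicate left out in turn, the difference at 48 minus 0 h lay between 1.0 and 3.0, the number of genes with PHF10 at 48 h alone between 1.0 and 3.0, and the KO minus Control difference at 0 h between 0.0 and 2.0. Peak-number deviations of libraries sharing a replicate number had a correlation of -0.0387 over 21887 genes. This cannot say whether the numbers mark shared cultures, and the labels do not say what they mark. With the replicate block the difference was 2.0 (exact permutation p = 0.5, the smallest p this block allows). Depth is unknown, so the absence of a peak is not absence of binding, and lists of unequal length limit every comparison.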
